A study of Arabidopsis thaliana with 11 samples.

Results

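Most nuclear serine and leucine tRNAs of *Arabidopsis thaliana* have a long extra arm between the anticodon stem and the T stem. Most other nuclear tRNAs lack it. The 5-methylcytosine (m5C) of serine and leucine tRNAs was followed here across all genotypes and both tissues of an RNA bisulfite sequencing (RBS-seq) study. The members were taken by name: every listed m5C site in a tRNA for serine or leucine, and every nuclear consensus sequence for these amino acids in the tRNA reference list. This gave 4 of the 39 listed sites, in Ser(CGA), Ser(GCT), Ser(TGA) and Leu(TAA), where the letters in parentheses are the anticodon. All 4 sites lie at structural position C48. It also gave 13 of the 58 consensus sequences of nuclear origin alone, 5 for serine and 8 for leucine, which stand for 102 loci.

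In RBS-seq, cytosines without a methyl group are converted by bisulfite and read as T, so that one still read as C is a candidate m5C. The study applied it to gel-purified RNA enriched for tRNA, in 11 libraries from 2 experiments. Experiment 1 compared seedlings 10 days after germination, with 1 library each of *trm4b-1*, the *trdmt1 trm4b* double mutant, *trdmt1*, *trm4a*, *nop2a-2* (also called *oli2-2*) and *nsun5-2*, and 3 libraries of wild type. Experiment 2 compared mixed buds of *trm4b-2* with mixed buds of wild type, 1 library each. By the study's methods all lines are T-DNA insertion mutants in the Columbia ecotype, and the double mutant joins *trdmt1* with the *trm4b-1* allele, so *trm4b-1* and the double mutant are not independent alleles. The wild type seedling value is the authors' mean of its 3 libraries, given without a spread, and no mutant was replicated. The spread between plants of 1 genotype was therefore unknown, and the genotypes are compared below by their values alone, without a p-value.

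The variable region joins the anticodon stem to the T stem, and in serine and leucine tRNAs it folds into a hairpin of its own, which synthetases and other enzymes use to recognise these tRNAs. Position 48 is its last base and pairs with position 15 of the D loop, the Levitt pair that holds the corner of the L-shaped fold. TRM4, called NSUN2 in animals, is the conserved enzyme that methylates cytosines around this junction, while TRDMT1 (the DNMT2 family) methylates C38 in the anticodon loop. TRM4A and TRM4B are the TRM4 paralogues of *Arabidopsis*, and NSUN5 and NOP2A belong to families known for methylating ribosomal RNA.

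The consensus sequences of the 4 tRNAs with a listed site are shown because the site and the arm that sets these tRNAs apart can be read from them. They are written 5′ to 3′ as DNA without the CCA tail, with the variable region in capitals. The last capital in each is C48.
Ser(CGA): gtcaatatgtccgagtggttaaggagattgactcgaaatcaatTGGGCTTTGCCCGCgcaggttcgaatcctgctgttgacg
Ser(GCT): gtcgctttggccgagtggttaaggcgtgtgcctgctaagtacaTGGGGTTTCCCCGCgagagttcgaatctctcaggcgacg
Ser(TGA): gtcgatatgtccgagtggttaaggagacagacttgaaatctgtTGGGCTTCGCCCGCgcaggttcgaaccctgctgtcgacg
Leu(TAA): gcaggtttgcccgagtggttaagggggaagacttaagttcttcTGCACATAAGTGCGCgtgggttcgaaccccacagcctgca
The variable region held 14 bases in each of the 3 serine tRNAs and 15 bases in Leu(TAA). A run of 4 complementary base pairs closed a loop of 3 bases in the serine tRNAs and of 4 bases in Leu(TAA). In all 4 tRNAs the stem was followed by the same pair of bases, a G and then the listed C at position 48. All 4 had G at position 49 after it and G at position 15.

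The first listed loci, on TAIR10, are AT3G09585 for Ser(CGA) (chr3:2944612-2944693), AT2G44320 for Ser(GCT) (chr2:18309977-18310058), AT1G55625 for Ser(TGA) (chr1:20791311-20791392) and AT2G36510 for Leu(TAA) (chr2:15320234-15320316). Ser(CGA) stood for 4 loci, Ser(GCT) for 11, Ser(TGA) for 7 and Leu(TAA) for 5. All 27 loci are annotated as tRNA genes in RefSeq (TAIR10.1). A level in the tables belongs to such a family of loci and not to a single gene. The 4 sequences together hold 77 cytosines, 20 of them in the variable region, and 1 cytosine in each sequence was listed as a site.

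Over the whole series the 39 sites lay in 24 tRNAs, and 16 of the sites were at C48. A value needed 5 reads by the study's methods, and cytosines below that were entered as N.D. The tables hold percentages without read counts. The precision of a single value is thus unknown, and neither an interval nor a limit for a level of 0% is given. N.D. cells numbered 3 to 12 in the mutant columns, and 25 sites had a value in all 9 columns. A mutant was compared with the wild type of its own tissue. Sites with at least 20% methylation in that wild type were sorted into those lost (a mutant level of at most 5%), those reduced (over 5%, and lower than wild type by 20 percentage points or more) and those retained (the remainder). The tables do not measure the mutated genes themselves. As a check of the *trdmt1* labels, the 3 sites at C38, where TRDMT1 acts, were lost in *trdmt1* and in the double mutant. They were retained in *trm4b-1* and *trm4b-2*. No C38 site was lost in *trm4a*, *nop2a-2* or *nsun5-2* either, so this does not check the *trm4b* labels.

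In wild type the 4 sites were highly methylated in both tissues. Wild type buds had 63% at Ser(CGA), 90% at Ser(GCT), 86% at Ser(TGA) and 90% at Leu(TAA). Wild type seedlings had 83% at Ser(CGA), 89% at Ser(GCT), 100% at Ser(TGA) and 72% at Leu(TAA). The median was 88% in buds and 86% in seedlings, beside 83.5% in buds and 83% in seedlings for the other 12 sites at C48. The lowest of the 12 stood at 17% in buds and 23% in seedlings, under the lowest serine or leucine site, which stood at 63% in buds and 72% in seedlings. The order of the 4 sites was not kept between tissues: Leu(TAA) was lowest in seedlings and shared the highest level in buds with Ser(GCT).

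Buds and seedlings differed by more at 3 of these sites than at most sites of the series. Buds minus seedlings gave -20 points at Ser(CGA), 18 points at Leu(TAA), -14 points at Ser(TGA) and 1 point at Ser(GCT). Over all 39 sites the median absolute difference was 3 points and 7.69% of sites differed by 20 points or more. By the size of the difference Ser(CGA) was 3rd, Leu(TAA) 4th, Ser(TGA) 6th and Ser(GCT) 25th. The 3 that differed were those with the fewest values elsewhere in the tables, and the differences ran in both directions. Tissue and experiment cannot be told apart, and buds had 1 library, so none of these differences was tested.

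Ser(GCT), a serine tRNA for the AGC and AGU codons, was the single member with a value in every column. Its C48 was at 2% in *trm4b-1*, 5% in *trdmt1 trm4b*, 91% in *trdmt1*, 82% in *trm4a*, 82% in *nop2a-2* and 82% in *nsun5-2*, against 89% in wild type seedlings. In buds it was at 0% in *trm4b-2*, against 90% in wild type. The 3 lines without TRM4B thus lay between 0% and 5% and the 6 columns with it between 82% and 91%, with no overlap. The difference from the matching wild type was -87 points in *trm4b-1*, -84 points in the double mutant and -90 points in *trm4b-2*. It was 2 points in *trdmt1* and -7 points in each of *trm4a*, *nop2a-2* and *nsun5-2*. The lack of overlap was not particular to Ser(GCT). The C50 sites of Gly(TCC), Gly(GCC), Glu(TTC) and Glu(CTC) each stayed within 10 points of it in all 9 columns. Among all sites compared, the share lost per line without TRM4B ran from 42.9% (*trm4b-2* buds) to 54.3% (*trdmt1 trm4b*).

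Across the 6 columns with TRM4B the range of Ser(GCT) was 9 points, beside a median range of 5 points over the 25 fully measured sites, where C38 sites were taken without the *trdmt1* column. Its fall of 7 points was the 6th largest absolute difference of 30 sites in *trm4a*, the 8th of 27 in *nop2a-2* and the 7th of 27 in *nsun5-2*. The median absolute difference over all sites was 2.5 points in *trm4a*, 4 points in *nop2a-2* and 2 points in *nsun5-2*. The value of Ser(GCT) was thus slightly lower in these 3 mutants than in the wild type mean, with no replicate to set this against.

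**Figure D1:**
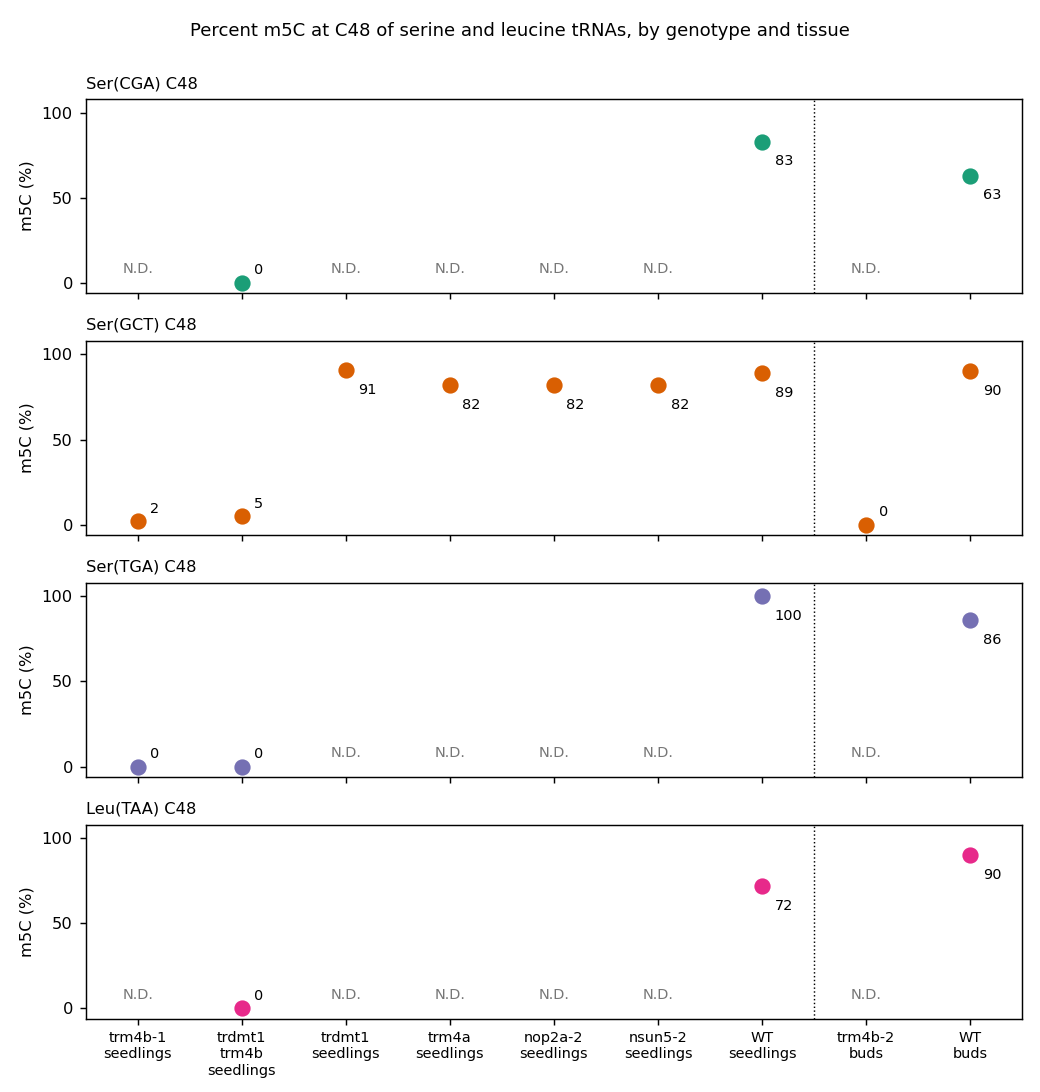
Percent m5C at C48 of Ser(CGA), Ser(GCT), Ser(TGA) and Leu(TAA), 1 panel each, in the 6 mutant columns and the wild type mean of seedlings, left of the dotted line, and in *trm4b-2* and wild type buds, right of it; each point is 1 column, N.D. marks a column without a value, and no error is shown because mutants had 1 library and the wild type mean came without a spread. Ser(GCT) stands at 0% to 5% in the 3 lines without TRM4B and at 82% to 91% elsewhere, while the other 3 tRNAs have values in wild type and in the double mutant but in few other lines.

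The other 3 members were measured in wild type and in few mutants. Ser(TGA), which reads UCA codons, was at 0% in *trm4b-1* and 0% in the double mutant, against 100% in wild type seedlings. Ser(CGA), for UCG codons, was at 0% in the double mutant, against 83% in wild type seedlings. Leu(TAA), for UUA codons, was at 0% in the double mutant, against 72% in wild type seedlings. Ser(CGA) and Leu(TAA) were N.D. in *trm4b-1*, and all 3 were N.D. in *trdmt1*, *trm4a*, *nop2a-2*, *nsun5-2* and *trm4b-2*. For Ser(CGA) and Leu(TAA) the loss was therefore seen only in the line that lacks TRDMT1 as well, and which of the absent enzymes their methylation needs cannot be told apart from their own values. For Ser(TGA) the loss was also present in *trm4b-1*, in which TRDMT1 is intact.

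Read as calls, 2 of the 2 serine and leucine sites with a value were lost in *trm4b-1*, where 78.1% of all sites compared were lost or reduced and 46.9% were lost. In *trdmt1 trm4b* 4 of 4 were lost, where 74.3% of all sites were lost or reduced and 54.3% were lost. In *trm4b-2* buds 1 of 1 was lost, where 62.9% of all sites were lost or reduced and 42.9% were lost. No serine or leucine site with a value in these lines was reduced or retained. Ser(GCT) in the double mutant stood exactly at the limit of 5% and counted as lost.

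The 4 lines with TRM4B intact had 1 member to compare, Ser(GCT), which was retained in each of them. In *trdmt1* 0 of 1 was lost or reduced, where 13.3% of all sites were. In *trm4a* 0 of 1 was lost or reduced, where 3.33% of all sites were, and in *nsun5-2* 0 of 1, where 7.41% of all sites were. In *nop2a-2* 0 of 1 was lost or reduced and 0 of the 27 sites compared were.

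The other 12 sites at C48 lie in short-arm tRNAs, with variable regions of 4 or 5 bases, and behaved unevenly in the same lines. In *trm4b-1* the median difference was -93.5 points for the 2 serine sites and -34 points for the 9 other C48 sites, of which 5 were lost, 2 reduced and 2 retained. In *trdmt1 trm4b* it was -83.5 points for the 4 serine and leucine sites and -23 points for the 11 others, of which 5 were lost, 1 reduced and 5 retained. In *trm4b-2* buds it was -90 points at Ser(GCT) and -20 points for the 12 others, where 4 were lost, 2 reduced and 5 retained, and 1 stood under the wild type minimum. Over all sites compared the median difference was -52.5 points in *trm4b-1*, -61 points in the double mutant and -50 points in *trm4b-2* buds. The medians of the 12 others joined sites that were lost with sites that were not, and over the 7 with a value in every column they were -67 points in *trm4b-1*, -67 points in the double mutant and -69 points in *trm4b-2*.

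The closest comparison is with short-arm tRNAs in which C48 was likewise the single listed site, a grouping made after these values were seen. There were 6 of these, Arg(TCG), Gln(TTG), Ile(AAT), Lys(CTT), Lys(TTT) and Thr(CGT). In *trdmt1 trm4b* the 4 serine and leucine sites lay between 0% and 5%, with wild type seedlings between 72% and 100%. In the same line the 5 short-arm sites with a value lay between 22% and 99%, with wild type seedlings between 33% and 92%. The 2 groups of sites did not overlap in this line, and 0 of the 5 short-arm sites were lost, where 54.3% of all sites were. The separation did not extend to all short-arm tRNAs. Of the 6 C48 sites in short-arm tRNAs with several listed sites, 5 were lost in this line, as the members were. Thr(CGT) C48 was at 84% in the double mutant, against 87% in wild type seedlings. Lys(CTT) C48 was at 99%, against 88%, Gln(TTG) C48 at 82%, against 92%, and Ile(AAT) C48 at 25%, against 33%. Lys(TTT) C48, named after its value was seen as the single one reduced, was at 22%, against 66%.

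In the lines with fewer values the members also lay below the short-arm sites with C48 as the single listed site. That group was chosen with these values known, so they give the separation no separate support. Of all sites compared, 46.9% were lost in *trm4b-1* and 42.9% in *trm4b-2* buds. In *trm4b-1* Ser(GCT) and Ser(TGA) were at 2% and 0%, while Thr(CGT) was at 88%, Gln(TTG) at 67% and Lys(CTT) at 54%. In *trm4b-2* buds Ser(GCT) was at 0%, while the 6 short-arm sites lay between 20%, at Lys(TTT), and 90%, at Arg(TCG). The 6 remaining C48 sites, in short-arm tRNAs with several listed sites, lay between 0% and 5% in all 3 lines with 1 exception. That was Gln(CTG), which stood at 71% in *trm4b-1* and 88% in the double mutant, against 86% in wild type seedlings, and at 93% in *trm4b-2* buds, against 90% in wild type buds. With 4 members, 3 of them seen in few lines, the difference between the groups of sites was not tested.

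**Figure D2:**
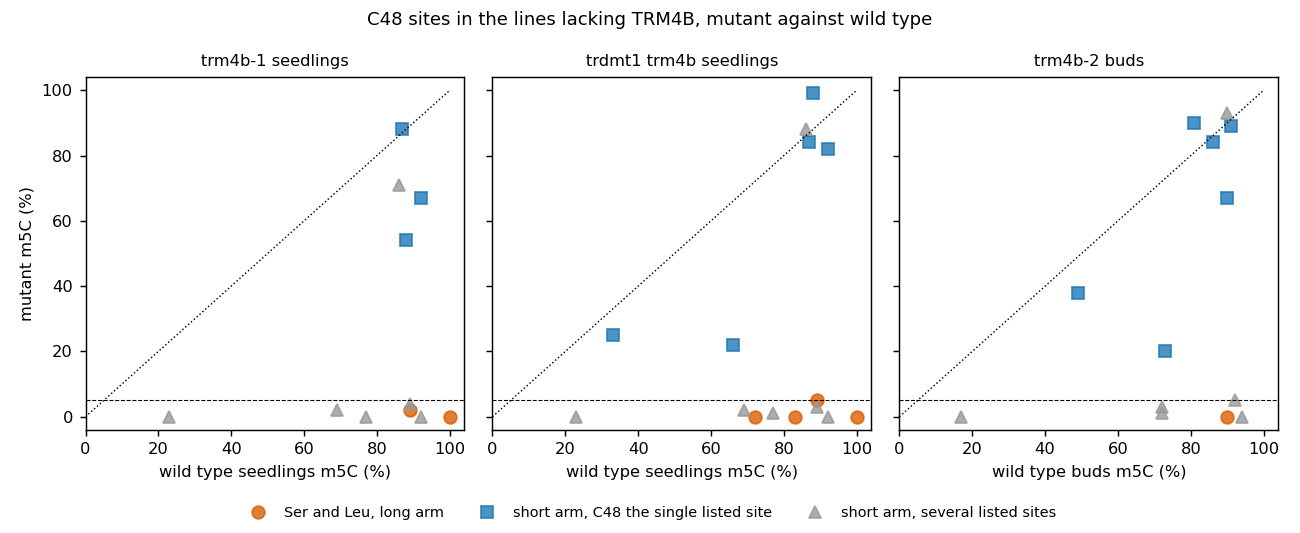
Percent m5C in the mutant (vertical) against the matching wild type (horizontal) at sites of position C48 in *trm4b-1*, *trdmt1 trm4b* and *trm4b-2*; each point is 1 site, circles are serine and leucine tRNAs, squares short-arm tRNAs with C48 as the single listed site, triangles short-arm tRNAs with several, the dotted line is equality and the dashed line the limit of 5% for a lost site. All circles lie at or under the dashed line, as do the triangles other than Gln(CTG), and all squares lie above it.

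The base just before C48 set the members apart from the other listed C48 sites. Most serine and leucine sequences shared it, however, listed or not. It was G in 10 of the 13 nuclear ones, and 10 of the 13 had G at position 49. Among the 16 listed C48 sites, the base just before C48 was G in the 4 serine and leucine tRNAs and in 0 of the 12 others. Those 12 had A in 7, T in 3 and C in 2. The base at position 49 was G in 9 of the 16, the 4 members and 5 of the short-arm tRNAs, and C in 7. The 5 bases on each side of the site are shown for a serine and the leucine member and for the 5 short-arm tRNAs with the same G at 49, with C48 in capitals.
Ser(GCT): ccccgCgagag
Leu(TAA): gtgcgCgtggg
Lys(CTT): gtggtCgtggg
Lys(TTT): gtggcCgtggg
Arg(TCG): aaggtCgtggg
Thr(CGT): aaggcCgcgag
Ile(AAT): aaggtCgcagg
Leu(TAA), Lys(CTT), Lys(TTT) and Arg(TCG) shared all 5 bases after C48. In the double mutant Leu(TAA) was at 0%, against 72% in wild type seedlings, Lys(CTT) at 99%, against 88%, and Lys(TTT) at 22%, against 66%, while Arg(TCG) was N.D. Lys(CTT) was at 54% in *trm4b-1*, whose allele the double mutant carries. Among sites with G at 49 and a value in the double mutant, 4 of 4 were lost in long-arm tRNAs. In short-arm tRNAs 0 of 4 were lost, 1 was reduced and 3 were retained, where 54.3% of all sites were lost and 74.3% lost or reduced. This grouping was also made with the values known. Across the 16 listed C48 sites the long arm and the G before C48 always occurred together, so the 2 traits cannot be told apart.

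No member had a C at position 49, so a second site there was not possible. Ser(CGA) and Ser(TGA) have C at position 50, which was not listed as a site in either. In the nuclear consensus list 13 sequences have C at both 49 and 50, and 5 of these had a listed C50. Another 13 have C at 50 after a different base, and 0 of these had one. Both counts include sequences without any listed site, for which no level is given, so the contrast was not tested.

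By the mean absolute difference over the 9 columns, the 3 sites outside serine and leucine most like Ser(GCT) C48 were all at C50. They were Gly(TCC) C50 with a mean difference of 4.33 points, Gly(GCC) C50 with 4.44 points and Glu(TTC) C50 with 4.67 points, among 29 sites with at least 6 shared columns. None of the 3 differed from Ser(GCT) by more than 10 points in any column. The nearest site at C48 was that of Gly(GCC), 5th in order, with a mean difference of 5 points.

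Missing values were frequent among the members. Of the 36 cells for the 4 sites, 17 were N.D. (47.2%), all in Ser(CGA), Ser(TGA) and Leu(TAA), against 39 of the 315 cells of the other sites (12.4%). Among C48 sites of short-arm tRNAs with a single listed site 18 of 54 cells were N.D. (33.3%), and among those with several listed sites 1 of 54 was (1.85%). In *trm4b-2* buds the 3 N.D. cells were those of Ser(CGA), Ser(TGA) and Leu(TAA), and the other 35 sites had 0. In the double mutant the 4 N.D. cells were all at other sites. Ser(CGA), Ser(TGA) and Leu(TAA) stood for 4, 7 and 5 loci, and Ser(GCT), which was never N.D., for 11. Whether missing values went with fewer loci was not tested, and other C48 sites did not all follow this order. Ile(AAT) had 17 loci and a value in 4 columns, and Thr(CGT) had 5 loci and a value in 9.

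The reference list held 9 further nuclear serine and leucine sequences, with no listed site and 75 loci, against 27 loci for the 4 with one. The absence of a listed site does not show an unmethylated tRNA, since a site also needed enough reads and 20% methylation. By the study's own account Leu(CAA) was not detected in its *Arabidopsis* data, so its methylation was not measured. The serine ones were Ser(AGA) with 37 loci and Ser(GCT)1 with 2. The leucine ones were Leu(AAG) with 11 loci, Leu(CAA) with 10, Leu(TAG) with 9, Leu(CAG) with 3, and Leu(AAG)1, Leu(GAG) and Leu(TAA)1 with 1 each. All 13 serine and leucine sequences, listed or not, had C at position 48 and G at position 15. Among the 44 other nuclear sequences with an anticodon 33 had C at 48, and 12 of these had a listed C48 site, against 4 of 13 in serine and leucine.

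A variable region of 10 bases or more was found in 11 of the 13. The lengths were 14 bases in Ser(AGA), 11 in Ser(GCT)1, 15 in Leu(CAA) and Leu(TAA)1, and 11 in Leu(AAG), Leu(CAG) and Leu(TAG). The exceptions were Leu(AAG)1 with 5 bases and Leu(GAG) with 4. Each stood for 1 locus, AT1G45236 (chr1:17157360-17157431) and AT2G21760 (chr2:9284034-9284105), and these were the 2 of the 102 loci that RefSeq annotates as pseudogenes. Their sequences are shown because they carry leucine anticodons without the arm, with the variable region in capitals.
Leu(AAG)1: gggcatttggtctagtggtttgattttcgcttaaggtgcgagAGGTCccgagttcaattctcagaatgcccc
Leu(GAG): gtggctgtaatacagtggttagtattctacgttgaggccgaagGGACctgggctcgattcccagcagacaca
Leu(GAG) also lacked the TTC of the T loop, and of the 13 sequences these 2 alone had C at 49. The label of a long variable arm therefore held for 11 of the 13 sequences and for all 4 with a listed site. In the other 44 nuclear sequences a region this long was placed in 2.

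**Figure D3:**
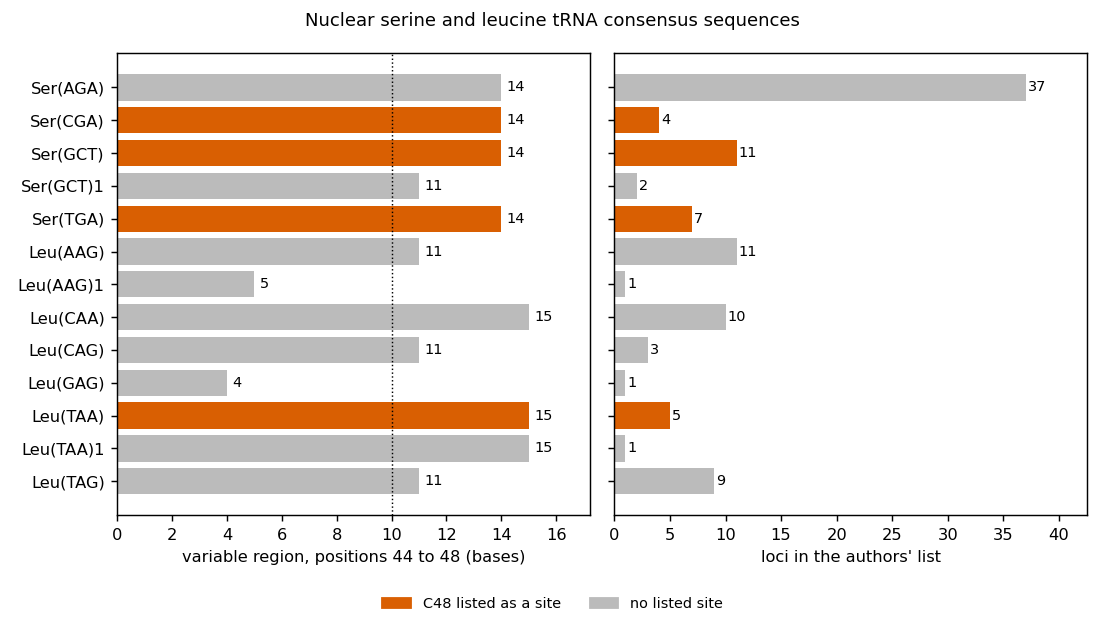
Length of the variable region in bases (left) and number of loci (right) for the 13 nuclear serine and leucine consensus sequences, with those listed with a C48 site in orange and those without in grey; the dotted line marks 10 bases. The 4 listed tRNAs have 14 or 15 bases and 4 to 11 loci, the grey Ser(AGA) has the same length as the listed serine tRNAs and 37 loci, and Leu(AAG)1 and Leu(GAG) fall short of the line.

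Ser(AGA), for UCU and UCC codons, was the largest serine family and had no listed site. Its sequence is shown because its variable region is letter for letter that of Ser(CGA), which was at 83% in wild type seedlings.
Ser(AGA): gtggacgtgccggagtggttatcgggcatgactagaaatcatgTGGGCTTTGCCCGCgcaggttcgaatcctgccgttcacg
Of its 37 loci, 33 were on chromosome 1, and 27 of these formed a single run from 21268787 to 21307675 on TAIR10. The loci in the run were spaced by a median of 1531 bases, between 1349 and 1537, and 52 loci of Tyr(GTA) lay among them. In 2 of the Ser(AGA) loci the listed span was 84 bases where the consensus has 82. The members were scattered by comparison: Ser(GCT) had 1 to 3 loci on each of the 5 chromosomes. A Ser(CGA) locus, AT3G09585, and a Ser(TGA) locus, AT3G09595 (chr3:2945696-2945777), began 1084 bases apart on chromosome 3, and the Leu(TAA) loci AT2G36510 and AT2G36520 began 151 bases apart on chromosome 2.

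Reads were aligned to sequences with every C replaced by T, which makes some of these tRNAs more alike. Over 82 bases Ser(CGA) and Ser(TGA) differed at 9 positions as listed and at 4 after replacement. Ser(AGA) and Ser(CGA) differed at 16 and at 13 positions, and Ser(AGA) and Ser(TGA) at 20 and at 14. Around position 48 the stretch without a difference was 40 bases between Ser(CGA) and Ser(TGA) after replacement, and 35 bases between Ser(AGA) and either of them. Ser(GCT) shared 6 bases around position 48 with each of these 3, before and after replacement. A read that stays within a shared stretch matches both sequences, and how such reads were counted in the levels of Ser(CGA) and Ser(TGA) was not tested.

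The leucine sequences were divided in the same way. Leu(TAA) shared a stretch of 10 bases around position 48 with each of the other 5 long-arm leucine sequences, before and after replacement. Those 5, which had no listed site, shared 22 to 37 bases with one another after replacement and 16 to 33 before it. Leu(TAA)1, with the same anticodon as Leu(TAA), differed at 6 of 84 bases, or at 4 after replacement, from Leu(CAA), the single other sequence of that length. Around position 48 it shared 24 bases with Leu(CAA) and 26 with Leu(AAG) after replacement. Both are shown to be set beside the listed Leu(TAA), with the variable region in capitals.
Leu(TAA)1: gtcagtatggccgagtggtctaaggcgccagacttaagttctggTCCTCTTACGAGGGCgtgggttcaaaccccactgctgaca
Leu(CAA): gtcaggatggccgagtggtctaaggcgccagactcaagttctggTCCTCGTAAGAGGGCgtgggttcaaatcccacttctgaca
Whether the likeness between sequences bears on which tRNAs were listed was not tested.

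**Figure D4:**
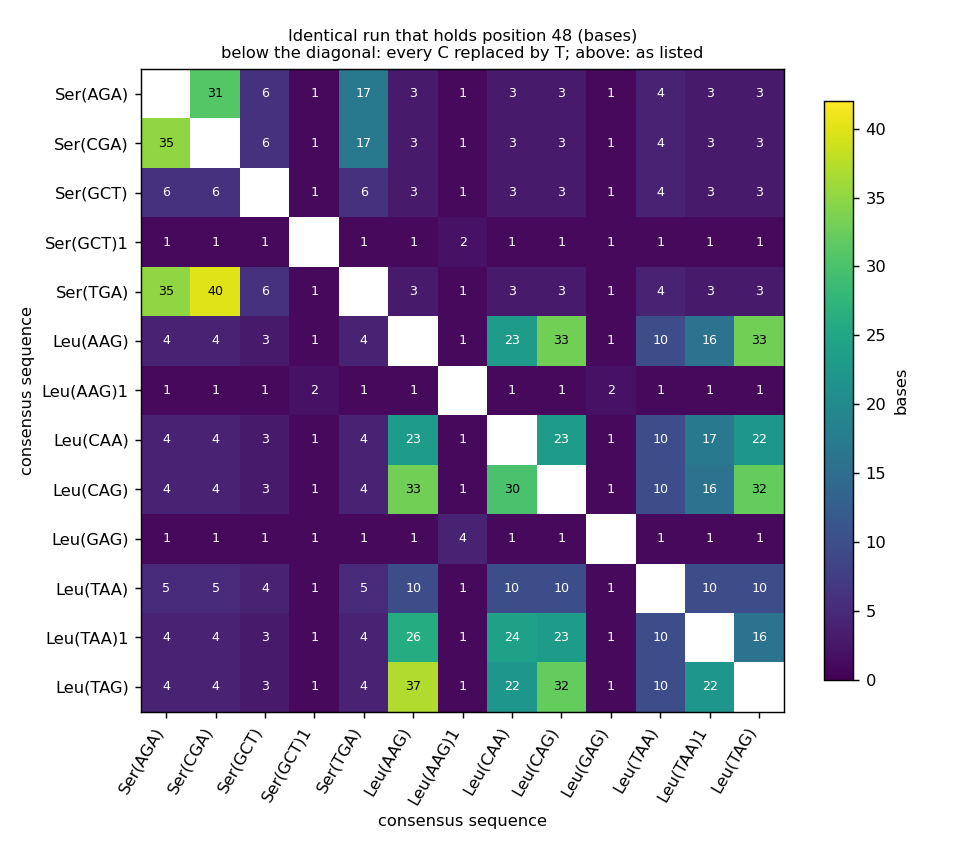
Length in bases of the stretch without a difference that holds position 48, for each pair of the 13 nuclear serine and leucine consensus sequences aligned from their 3′ ends, below the diagonal with every C replaced by T and above it as listed. The longest is 40 bases, between Ser(CGA) and Ser(TGA) after replacement, while Ser(GCT) shares 6 bases with the other serine tRNAs of the same length and Leu(TAA) 10 with the other long-arm leucine tRNAs.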

How the data were processed

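Per the study's methods, the authors trimmed reads of bisulfite converted, tRNA-enriched RNA and aligned them to a list of 100 tRNA consensus sequences, made from TAIR10 by joining identical and very similar tRNAs, with each C replaced by T. The deposited values are percent methylation (the share of reads at a cytosine that kept C), rounded to whole numbers, 1 column per library except that the authors deposited the seedling wild type as the mean of 3 libraries. A value needed 5 reads and a site 20%, and cells without a value held N.D. Other cytosine modifications that resist bisulfite read as m5C. Depth per site was unknown. Each value column was tied to its genotype through the column name, which left 0 of them unmatched.

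Position 48 was counted as the 26th base from the 3′ end, and the variable region (positions 44 to 48) was the stretch between the anticodon stem and position 49. All 102 nuclear serine and leucine loci were found in the RefSeq gene table (TAIR10.1), which was used for gene types alone. The authors' list supplied the TAIR10 coordinates, without strand. Likeness to Ser(GCT) was the mean absolute difference over at least 6 shared columns. Named were the 4 members, every nuclear serine and leucine sequence, the 3 most like sites, and other C48 sites where retained in a *trm4b* line. Lys(TTT) C48, Gly(GCC) C48 and Glu(CTC) C50 fall outside this rule and were chosen after their values were seen. No p-value was computed, since no mutant was replicated, and lists are given by counts and medians. The members and lists were chosen with earlier results of these data known. Calls and positions were run on simulated data built with the same cut-offs and the same position rule, which checks the code alone and not the numbering of the real sequences. The alternatives tried were a required fall of 10 or of 30 points, a mutant level under 0.5 times wild type, a minimum of 40% in wild type, lost levels of 0%, 2% and 10%, the wild type of the other tissue, means for medians, fully measured sites alone, position 48 counted from the T loop, shared entries, and a length of 79 bases. Python 3.11.15 and matplotlib 3.10.9 were used.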

Additional observations from a re-analysis of the deposited data

How the results depend on the processing

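Of 58 alternatives to 18 results, 51 left the result within 1.5 times its count or, for a median, within 8.28 points, the root mean square difference from wild type over 84 values of *nsun5-2*, *nop2a-2* and *trm4a*, which stood in for the missing replicate spread. The counts of serine and leucine sites lost or reduced kept their values in all 7 mutants whether a fall of 10 or of 30 points or a level under 0.5 times wild type was required, with a minimum of 40% in wild type and, for the lines without TRM4B, the wild type of the other tissue. With lost defined as 0%, 1 of the 2 serine sites was lost in *trm4b-1*, where Ser(GCT) stood at 2%, and with 0% or 2% the count in *trdmt1 trm4b* was 3 of 4. The other 6 changes concerned the 12 C48 sites outside serine and leucine, whose levels fall into lost and retained sites. Their mean difference was -46.3 points in *trm4b-1*, -36 points in *trdmt1 trm4b* and -34.8 points in *trm4b-2*. Over the 7 of them with a value in every column their median difference was -67 points in *trm4b-1*, -67 points in *trdmt1 trm4b* and -69 points in *trm4b-2*. No paired analysis was possible because each mutant had 1 library and the wild type seedling libraries were given only as their mean, which also left no replicate to leave out. With unknown depth, a level of 0% has no upper limit, and Ser(CGA) and Leu(TAA) rest on 1 mutant library each.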

Other observations

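The reference list held 3 more serine and leucine sequences whose loci are shared between the nuclear and an organelle genome, and none had a listed site. Ser(GGA) and a second Ser(TGA) entry, shared with the mitochondrion, were 87 bases long with a variable region of 18 bases and C at position 48. Leu(TAG), shared with the chloroplast, was 80 bases long with a variable region of 11 bases and had T at position 48, the single serine or leucine entry of nuclear origin without C there (15 of 16 had it). Ser(GCT)1, of nuclear origin alone, had A at position 49, and both of its loci spanned 38 bases in the list where the consensus has 80.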
